A study of Mus musculus with 6 samples.

Results

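The *Zscan4* and *Tcstv* genes are 2 families of tandem copies that are transcribed in the mouse embryo at the 2-cell stage and in a small fraction of ESCs. Here they were represented by *Zscan4b*, *Zscan4c*, *Zscan4d*, *Zscan4f*, *Tcstv1* and *Tcstv3*, chosen by gene symbol because they are the *Zscan4* and *Tcstv* rows of the deposited expression table, 6 of its 19489 genes. mRNA was measured in 6 libraries of mouse ESCs grown with serum and LIF, 3 of control (Con) ESCs labelled wild type and 3 of ESCs with exogenous *Dppa3* (*Dppa3* OE ESCs). By the methods of the study, *Dppa3* OE ESCs carried the *Dppa3* coding sequence under the CAG promoter and Con ESCs the empty vector, both selected with puromycin. Stable lines were grown from picked colonies and transiently transfected cells were also made, and the ESC line and the kind of cells used for mRNA-seq are not given in the sources used here. The strain label is a 129 substrain that changes from library to library, so it was not used. Libraries 1 and 2 of each group are those the study compared, and the third pair carries the label D7, which no source explains. Pair here means the Con and the *Dppa3* OE library of the same number (1, 2 or D7). The methods of the study say, of its results as a whole, that they rest on repeated independent experiments, but no label ties the libraries of a group to separate cultures, and the p-values cover the spread among these libraries alone. The study named *Zscan4*, *Tcstv1* and *Tcstv3* among its genes of interest from these same libraries, so their direction in pairs 1 and 2 is not independent evidence. The 6 genes and the gene lists used below were also chosen with earlier results of these data known. Their values in the D7 pair and the calls in the lists are therefore not independent evidence either.

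The study names *Zscan4c*, *Zscan4d* and *Zscan4f* as the copies that encode the full-length protein, and *Zscan4b* is not among them. Full-length Zscan4 proteins join a SCAN domain, which pairs proteins with each other, to zinc fingers that bind DNA. They are known as markers of the 2-cell-like state that single ESCs enter and leave, and for a role in keeping telomeres long. The transcription factor Dux switches on many genes of this state, *Zscan4* among them, and Dppa2 and Dppa4 act upstream of Dux. Tcstv proteins are small, and less is known of what they do. Dppa3 (also named Stella or PGC7) is a maternal protein that keeps Uhrf1, a partner of the maintenance DNA methyltransferase Dnmt1, away from chromatin.

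The 4 *Zscan4* members lie on chromosome 7 of GRCm38.p6 within 502 kb, from 10900740 to 11402318. *Zscan4b* (10900740 to 10905050) and *Zscan4d* (11161643 to 11166148) were annotated on the minus strand, and *Zscan4c* (11005745 to 11010547) and *Zscan4f* (11397915 to 11402318) on the plus strand. *Tcstv1* (119893387 to 119894785) and *Tcstv3* (120316862 to 120318261) lie on chromosome 13. All 6 are annotated as protein coding. The copies *Zscan4a*, *Zscan4e*, *Zscan4-ps1*, *Zscan4-ps2* and *Zscan4-ps3* have no row in the table and were not analysed here.

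The starts of the *Zscan4* copies are shown first, and any link of their sequence to the levels was not tested. RefSeq promoters (GRCm38.p6, 250 bases before to 50 after the annotated start) were matched for 4 of the 6 members, and a stretch of 126 bases was placed around the TATAAA on the sense strand of each. Capitals mark TATAAA and every CG, the dinucleotide that can carry DNA methylation.
Zscan4b, chr7:10905046-10905171, minus strand: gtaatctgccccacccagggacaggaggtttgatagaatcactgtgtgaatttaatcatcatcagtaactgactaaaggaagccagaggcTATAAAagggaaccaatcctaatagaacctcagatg
Zscan4c, chr7:11005601-11005726, plus strand: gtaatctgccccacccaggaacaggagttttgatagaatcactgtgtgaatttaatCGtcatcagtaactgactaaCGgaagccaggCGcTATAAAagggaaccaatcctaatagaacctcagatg
Zscan4d, chr7:11166178-11166303, minus strand: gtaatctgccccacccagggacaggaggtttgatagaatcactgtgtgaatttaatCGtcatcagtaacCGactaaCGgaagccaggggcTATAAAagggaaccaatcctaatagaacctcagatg
Zscan4f, chr7:11397794-11397919, plus strand: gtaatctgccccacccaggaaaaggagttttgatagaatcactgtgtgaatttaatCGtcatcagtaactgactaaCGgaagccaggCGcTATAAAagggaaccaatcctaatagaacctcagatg

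Of these 126 bases, 118 were the same in all 4 copies. *Zscan4c* and *Zscan4f* differed at 1 base (99.2% identical), and *Zscan4b* and *Zscan4f*, the least alike, at 7 (94.4%). TATAAA began 31 bases before the annotated start in *Zscan4b* and *Zscan4f*, 54 in *Zscan4c* and 65 in *Zscan4d*. On either strand, TATAAA was present in 13.6% of 32851 RefSeq promoters of the same length, and 2.57% held it on the sense strand 20 to 60 bases before the start. *Zscan4d*, at 65 bases, falls outside that last window. The stretch held 3 CGs in *Zscan4c*, *Zscan4d* and *Zscan4f* and 0 in *Zscan4b*. The full promoters held 1 (*Zscan4b*), 4 (*Zscan4c*), 3 (*Zscan4d*) and 3 (*Zscan4f*), against a median of 7 over all promoters. The letters TGCACAC, written for the Zscan4 motif, matched 0 of the 4 promoters on either strand and 4.40% of all.  These counts describe the windows alone.

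The transcripts are also close to identical, which bears on how far the levels of single copies can be read. In GENCODE M21 transcripts, *Zscan4c* and *Zscan4f* were 99.6% identical over 1806 aligned bases, and *Zscan4b* and the unmeasured *Zscan4e* 99.7% over 1722. Of all windows of 100 bases, 89.5% in *Zscan4f*, 78.7% in *Zscan4b* and 72.8% in *Zscan4c* also occurred in another gene, against 29.6% in *Zscan4d*. *Tcstv1* and *Tcstv3* were 91.7% identical over 745 bases, and shared 4.06% and 7.79% of such windows with other genes. A read from a shared window fits more than 1 copy, so the split of reads between *Zscan4* copies is uncertain, and reads of the copies without a row may count toward those with one.

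The primers listed by the study for *Zscan4* qPCR were placed on the same transcripts, to show which copies that assay reads.
Zscan4 forward: agtgcttgaagcctcctgtc
Zscan4 reverse: gccttgttgcagattgctgt
Both matched *Zscan4b*, *Zscan4c*, *Zscan4d* and *Zscan4f* with 0 mismatches and an amplicon of 123 bases, and likewise *Zscan4a* and *Zscan4e*. *Zscan4-ps1*, *Zscan4-ps2* and *Zscan4-ps3* each had 1 mismatch under 1 of the primers. These primers therefore address the summed signal of the family.

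*Dppa3* itself checked the labels. In FPKM (fragments scaled for transcript length and sequencing depth, as deposited), *Dppa3* was 6.09, 3.89 and 26.2 in Con-1, Con-2 and Con-D7, and 279, 279 and 131 in OE-1, OE-2 and OE-D7. Each *Dppa3* OE library was above every Con library. The OE to Con ratio was 45.8 in pair 1, 71.7 in pair 2 and 4.99 in pair D7. Estimated counts summed to between 17408954 and 18176939 per library, so depth was near equal.

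All 6 members were higher in *Dppa3* OE than in Con ESCs within each of the 3 pairs, and in both groups all 6 were higher in pair 2 than in pair 1 and highest in pair D7. *Zscan4f*, the copy of the highest level, was 37.0 FPKM in Con-1 and 52.0 in OE-1, 64.7 in Con-2 and 94.7 in OE-2, and 179 in Con-D7 and 266 in OE-D7. Con-2 was thus above OE-1, and Con-D7 above OE-2, so the Con and OE libraries overlapped. *Zscan4b* was 19.4 and 25.6 FPKM in Con-1 and OE-1, 30.7 and 48.2 in pair 2, and 98.1 and 128 in pair D7. Its 6 libraries stood in the same order as those of *Zscan4f*.

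*Zscan4c* was 14.4 and 18.2 FPKM in Con-1 and OE-1, 19.3 and 33.2 in pair 2, and 63.2 and 94.8 in pair D7. It too kept that order, with Con-2 1.06 times OE-1. *Zscan4d*, the copy with the fewest shared windows, was 13.8 and 18.1 FPKM in pair 1, 17.2 and 30.8 in pair 2, and 50.1 and 68.2 in pair D7. Here OE-1 was slightly above Con-2, and Con-D7 was still 1.62 times OE-2.

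*Tcstv3* was 4.52 FPKM in Con-1, 7.14 in Con-2 and 20.02 in Con-D7, against 9.27 in OE-1, 13.8 in OE-2 and 31.9 in OE-D7. Its OE-1 library was above Con-2, while Con-D7 was 1.45 times OE-2. *Tcstv1* was the lowest member, at 0.39, 0.58 and 1.97 FPKM in Con and 0.97, 2.35 and 3.15 in OE. It rested on 6.10 to 46.9 estimated counts, and was the 1 member with OE-2 above Con-D7. Over the members, Con-D7 was above OE-2 in 5 of 6 and Con-2 above OE-1 in 3 of 6.

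**Figure D1:**
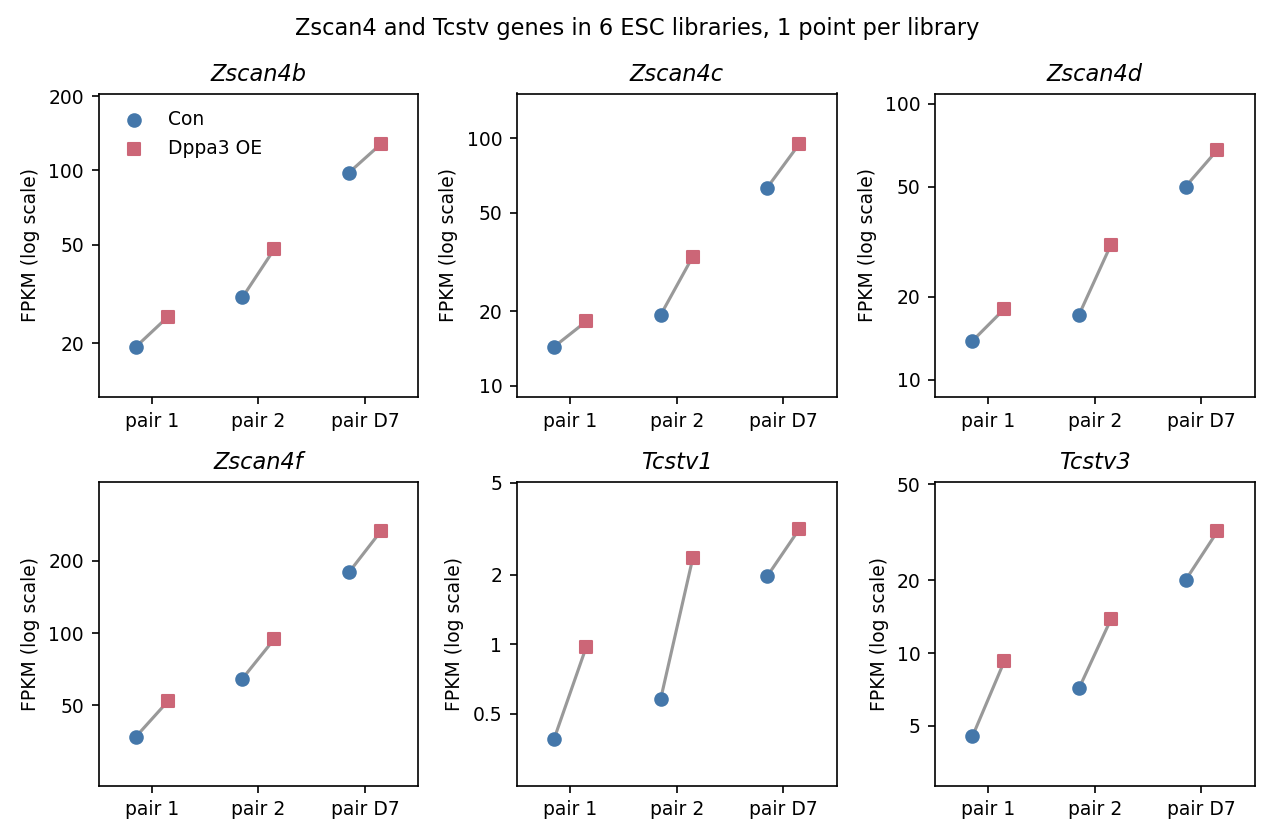
FPKM of each member (log axis) by pair, with 1 point per library, circles for Con and squares for *Dppa3* OE ESCs, and a line joining the libraries of a pair. Every line rises, and the pairs climb from 1 to D7, as in *Zscan4f* from 37.0 in Con-1 to 266 in OE-D7.

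Within pairs, the OE to Con ratio of FPKM had a median over the 6 members of 1.36 in pair 1 (1.26 to 2.49), 1.76 in pair 2 (1.46 to 4.05) and 1.49 in pair D7 (1.31 to 1.599). The *Zscan4* sum went from 84.6 to 114 FPKM in pair 1, from 132 to 207 in pair 2 and from 391 to 557 in pair D7, ratios of 1.35, 1.57 and 1.43. The *Tcstv* sum went from 4.91 to 10.2, from 7.72 to 16.2 and from 21.99 to 35.1 FPKM, ratios of 2.09, 2.09 and 1.59. The *Tcstv* ratio was the larger in each pair, and this difference between the families was not tested. In bulk libraries, more cells of the 2-cell-like state and more RNA per such cell cannot be told apart. Outside these libraries, the study reported more Zscan4-positive cells among *Dppa3* OE ESCs, by immunofluorescence and by flow cytometry.

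On the scale of log2(FPKM + 0.5), 2 of 6 members exceeded a log2 ratio of 0.5 in pair 1, 6 in pair 2 and 4 in pair D7, where 4.3%, 3.93% and 7% of the 13809 genes whose FPKM averaged 0.5 or more did. Averaged over the 3 pairs, the log2 ratio of FPKM was 0.48 ± 0.15 (SD, n = 3 pairs) for *Zscan4b*, 0.57 ± 0.22 for *Zscan4c*, 0.56 ± 0.25 for *Zscan4d* and 0.54 ± 0.04 for *Zscan4f*. It was 1.34 ± 0.67 for *Tcstv1* and 0.89 ± 0.19 for *Tcstv3*. An exact two-sided permutation test within pairs gave p = 0.25 for each member, the smallest value that 3 pairs allow, with OE higher in 3 of 3 pairs.

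The OE effect over pairs 1 and 2 depended on whether the libraries were treated as pairs. With OE and Con as the only term, 0 of the 6 members passed an adjusted p of 0.05 (edgeR quasi-likelihood test, Benjamini-Hochberg over 13494 genes), and 0% of all genes were called higher. Of the members, 0 were at an unadjusted p under 0.05 in that fit, and 58 of all genes were higher at that level. DESeq2 without the block called 0 members and 2 genes higher. With the replicate number as a block, 5 of the 6 members rose, where 0.763% of all genes were called higher (103 of 13494). The log2 fold change with the block was 0.48 (SE 0.08, adjusted p = 0.00523) for *Zscan4f* and 0.49 (SE 0.10, adjusted p = 0.0307) for *Zscan4b*. It was 0.52 (SE 0.12, adjusted p = 0.0451) for *Zscan4c* and 0.56 (SE 0.12, adjusted p = 0.0316) for *Zscan4d*. *Tcstv3* rose by 0.95 (SE 0.20, adjusted p = 0.0259). *Tcstv1*, with the largest estimate and the fewest reads, was at 1.68 (SE 0.48, adjusted p = 0.18) and did not pass. The members' median was 0.54 with the block and 0.57 without it, against 0.00 and -0.01 over all genes, and for *Zscan4f* the SE was 0.38 without the block. With the block and DESeq2, 0 members were called, with adjusted p = 0.101 for *Zscan4f*.

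Over all 6 libraries, 0 members were called with the D7 label as a term (0% of 13809 genes called higher, 125 at an unadjusted p under 0.05, 3 members among them) and 0 with the block (0% called higher, 607 at an unadjusted p under 0.05, all 6 members among them). The estimates with the block were 0.43 (95% interval 0.25 to 0.62) for *Zscan4b*, 0.53 (0.30 to 0.75) for *Zscan4c*, 0.51 (0.27 to 0.75) for *Zscan4d* and 0.49 (0.35 to 0.64) for *Zscan4f*. They were 1.16 (0.36 to 1.97) for *Tcstv1* and 0.82 (0.51 to 1.13) for *Tcstv3*. The lowest adjusted p among them was 0.0908, for *Zscan4f* (edgeR). DESeq2 with the block called 5 of the 6 in the same libraries, where it called 0.434% of all genes higher, and gave *Tcstv1* no adjusted p.

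The members also differed between pairs. Between pairs 2 and 1, with genotype as a term, 5 of 6 members were called higher, but 26% of all genes were called higher there as well. *Zscan4f* was higher by 0.74 (SE 0.08, adjusted p = 1.91e-06, edgeR) and *Zscan4d*, the smallest, by 0.43 (SE 0.12, adjusted p = 0.00634). *Tcstv1* was at 0.97 (SE 0.47, adjusted p = 0.0963) and did not pass. Set against the other 4 libraries, the D7 pair had again 5 of 6 members called higher, where 6.77% of all genes were. The log2 difference was 1.89 (SE 0.26, adjusted p = 0.0158) for *Zscan4b*, 1.90 (SE 0.23, adjusted p = 0.011) for *Zscan4c*, 1.76 (SE 0.20, adjusted p = 0.00998) for *Zscan4d* and 1.84 (SE 0.27, adjusted p = 0.0179) for *Zscan4f*. It was 1.62 (SE 0.25, adjusted p = 0.0196) for *Tcstv3* and 1.43 (SE 0.47, adjusted p = 0.114) for *Tcstv1*. The members' median was 1.80, against -0.03 over all genes. This call rests on both D7 libraries, since leaving out Con-D7 or OE-D7 leaves 1 library on the D7 side. The members' estimates were then 0.97 to 1.92 (median 1.77) without Con-D7 and 1.78 to 1.99 (median 1.87) without OE-D7.

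In the fit of 6 libraries with each pair as a level, the D7 pair was above pair 1 by a log2 difference of 1.90 to 2.28 and above pair 2 by 0.96 to 1.65, and pair 2 above pair 1 by 0.44 to 0.96. The members called higher were 6 of 6 for D7 over 1 (28.9% of all genes), 5 of 6 for D7 over 2 (19.2%) and 5 of 6 for 2 over 1 (21.1%). Testing the OE effect against each gap in this fit, the OE effect was lower than the gap of D7 over 1 in 5 of 6 members (21.1% of all genes). The difference ran from -1.08 (SE 0.21, adjusted p = 0.00678) in *Tcstv3* to -1.84 (SE 0.13, adjusted p = 0.000257) in *Zscan4b*. It was lower than the gap of D7 over 2 in 4 of 6, all the *Zscan4* members (10.7% of all genes). *Tcstv3* was at -0.56 (adjusted p = 0.0941) and *Tcstv1* at 0.21 (95% interval -0.93 to 1.35). Against the gap of 2 over 1, 0 of 6 members were called lower or higher, where 10.5% of all genes were called lower, with 1 member, *Zscan4f*, at an unadjusted p under 0.05. The differences ran from -0.26 (95% interval -0.56 to 0.04) in *Zscan4b* to 0.31 (-0.20 to 0.81) in *Tcstv3*. The intervals leave room for differences in either direction for *Zscan4b*, *Zscan4c*, *Zscan4d*, *Tcstv1* and *Tcstv3*.

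**Figure D2:**
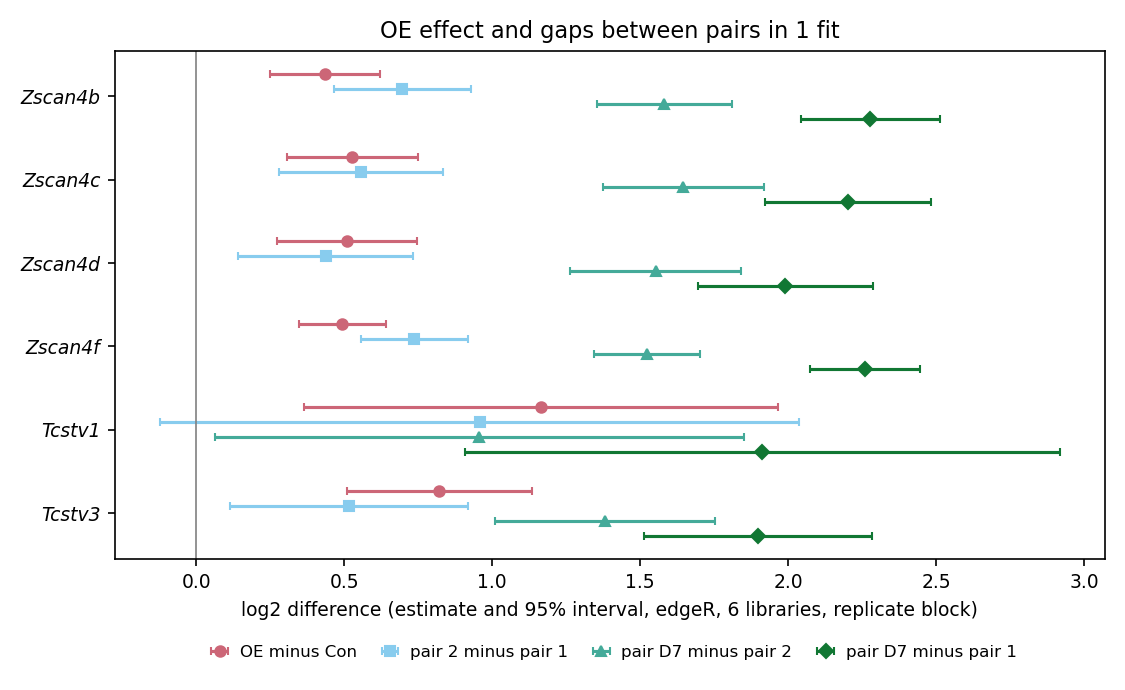
Log2 differences with 95% intervals from 1 edgeR fit of the 6 libraries with the replicate block, for the OE effect (circles) and the gaps of pair 2 over 1 (squares), D7 over 2 (triangles) and D7 over 1 (diamonds). For the 4 *Zscan4* members the OE effect (0.43 to 0.53) overlaps the gap of pair 2 over 1 and lies below both D7 gaps, and the intervals of *Tcstv1* are wide.

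The level of *Dppa3* did not order the libraries as the members did. *Dppa3* was 279 FPKM in both OE-1 and OE-2, while OE-2 exceeded OE-1 in 6 of 6 members, by a median of 1.82 times (1.49 to 2.42). In pair D7, the *Dppa3* OE library held 0.47 times the *Dppa3* FPKM of OE-2 and a median of 2.49 times its level of the members. Over the 6 libraries, Pearson's r of *Dppa3* with the mean pattern of the members was 0.44 and Spearman's rho 0.49, on log2(FPKM + 0.5). The D7 pair had the smallest *Dppa3* ratio (4.99), and its OE effect on *Dppa3* differed from that of pairs 1 and 2 by -3.46 on the log2 scale (SE 0.21, adjusted p = 3.34e-10 with the block, edgeR, 1.00 without). For the members, this difference was called in 0 of 6, with or without the block, where 1.44% of all genes were called in either direction with it, and 0 members were at an unadjusted p under 0.05 in either fit. With the block it ran from -0.13 (95% interval -0.44 to 0.19) in *Zscan4b* to 0.07 (-0.20 to 0.35) in *Zscan4f* among the *Zscan4* copies. It was -0.29 (-0.87 to 0.28) in *Tcstv3* and -1.02 (-2.45 to 0.41) in *Tcstv1*. The D7 side of this difference is 1 Con and 1 OE library, so its p-values and intervals cover no spread among D7 pairs.

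The *Zscan4* copies kept near-constant shares while their sum changed from 84.6 to 557 FPKM. *Zscan4f* made up 43.8% to 49.0% of the summed FPKM, *Zscan4b* 22.5% to 25.1%, *Zscan4c* 14.7% to 17.01% and *Zscan4d* 12.2% to 16.3%. In FPKM the order *Zscan4f*, *Zscan4b*, *Zscan4c*, *Zscan4d* held in each of the 6 libraries, whereas in estimated counts *Zscan4d* was above *Zscan4c* in Con-1 (19.9% against 19.6%) and OE-1 (19.2% against 18.5%). *Zscan4c* and *Zscan4d* were the closest neighbours in that order, at means of 16.1% and 14.2%, and their ranges overlapped. The share of *Zscan4d* was 12.8% in Con-D7 and 12.2% in OE-D7, the lowest of the 6, and its deposited FPKM implied a transcript of 2664 and 2695 bases there against 2364 to 2418 elsewhere. For *Zscan4b*, *Zscan4c* and *Zscan4f* the implied length varied by 1 base. In estimated counts, the share of *Zscan4d* was 17.2% and 16.6% in the D7 libraries and 15.9% to 19.9% in the others. On the scale of counts, the D7 libraries thus lay within the range of the others.

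**Figure D3:**
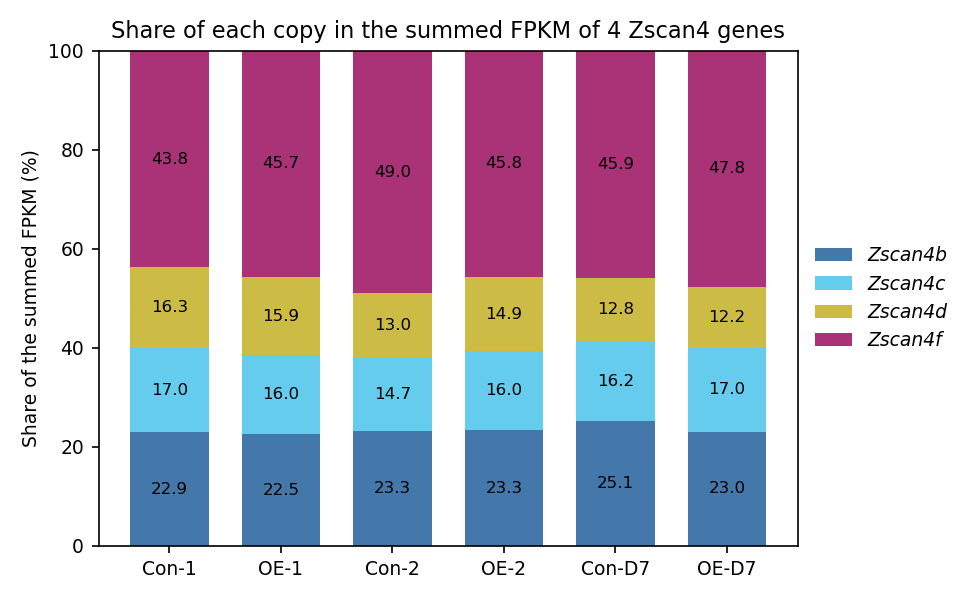
Share of each copy in the summed FPKM of the 4 *Zscan4* members, in %, as stacked bars from 0 to 100 with 1 bar per library. *Zscan4f* takes 43.8% to 49.0% in each library, in Con and *Dppa3* OE ESCs alike.

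The genes around *Tcstv1* and *Tcstv3* on chromosome 13 were for the most part ordered as the members were. Of 31 annotated genes in this region 11 had a row, and 7 of the other 9 were higher in *Dppa3* OE ESCs in 3 of 3 pairs and stood in the order pair 1, 2, D7 from low to high in both groups. They were *AF067063*, *Gm21761*, *B020031M17Rik*, *Gm20767*, *Gm21818*, *AF067061* and *BC147527*. *Gm21761*, the most abundant, was 24.5 and 38.6 FPKM in Con-1 and OE-1, 45.4 and 63.1 in pair 2, and 96.7 and 142 in pair D7, about as high as the *Zscan4* copies. Over 779 aligned bases *Gm21761* is 93.2% and *Gm21818* 94.99% identical to *Tcstv3*. *Gm21761* and *Gm20767* are 98.8% identical over 1368 bases. Reads may thus fit more than 1 of these genes, and the 7 need not be independent. The share of all genes with the same order was not counted. *Gm21188*, in the same region, was 1.58 to 2.18 FPKM in all 6 libraries with OE higher in 1 of 3 pairs. *Gm41080* was at 0 in Con-1 and Con-2 and at most 1.03 FPKM. In the *Zscan4* region, 5 of 42 annotated genes had a row, the 4 members and the pseudogene *Gm7207*, which stayed at 0.07 to 0.40 FPKM. 

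The genes whose pattern over the 6 libraries was most like the mean of the members were *Sp110* (r 0.9997), *Shoc2*, *Zfhx3*, *BB287469*, *Cast*, *Gm7969*, *Gm21818*, *Sh3bgrl2*, *Ddit4l* and *Tmem164* (r 0.991 or more). Likeness was Pearson's r on log2(FPKM + 0.5) among 5546 genes that averaged 1 FPKM or more and had an SD of 0.3 or more. With 6 libraries in 3 pairs such values are common, and 291 genes (5.25%) had r above 0.95. The members had r of 0.938 (*Tcstv1*) to 0.998 (*Zscan4d*) with their own mean. *Sp110* was 2.98, 3.80 and 8.26 FPKM in Con-1, Con-2 and Con-D7 and 3.89, 5.84 and 10.7 in OE, and *BB287469* 5.03, 6.67 and 31.9 against 8.06, 15.4 and 57.6. Of the 10, *Sp110* and *Ddit4l* also stand in the list of Dux-driven genes below.

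**Figure D4:**
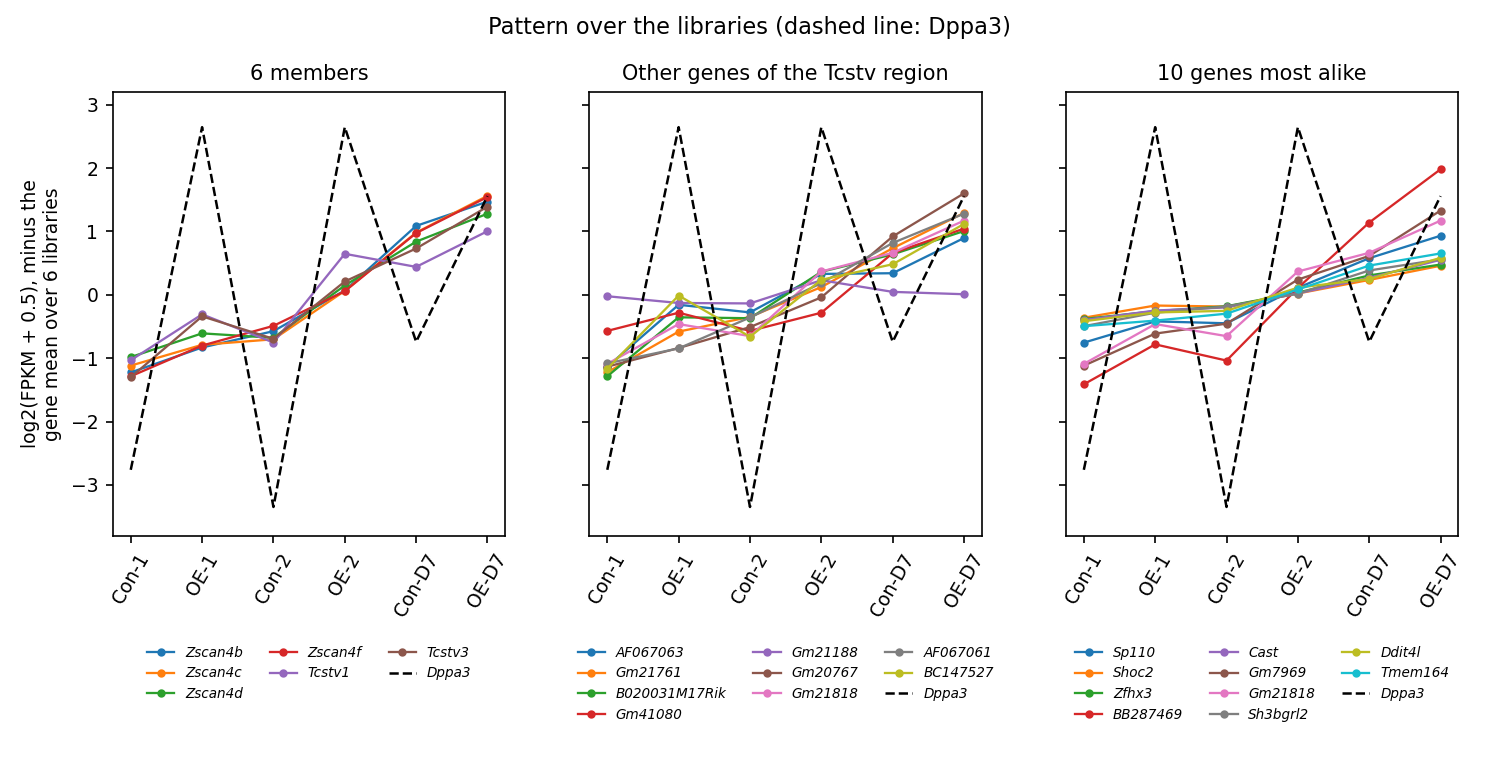
Log2(FPKM + 0.5) minus each gene's mean over the 6 libraries, for the 6 members, the other measured genes of the *Tcstv* region and the 10 genes most alike, with *Dppa3* as a dashed line in each panel. The members are lowest in Con-1 and highest in OE-D7, with OE above Con in each pair, and *Zscan4d*, *Tcstv1* and *Tcstv3* dip from OE-1 to Con-2. *Dppa3* swings more widely between Con and OE and was 279 FPKM in OE-1 and OE-2.

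The 2-cell genes that Dux is known to drive leaned the same way in *Dppa3* OE ESCs. Of 38 tested Dux-driven 2-cell genes, 8 were called higher and 0 lower in *Dppa3* OE ESCs over pairs 1 and 2 with the block. Of all genes, 0.763% were called higher there. Of the 38, 36 had a log2 fold change above 0, and the median was 0.55 against 0.00 over all genes. Without the block 0 of 38 were called. Those called were *Gm2016* (0.63, adjusted p = 0.00555, edgeR), *Gm10696* (1.02, adjusted p = 0.0124), *Gm2022*, *Gm8300*, *Gm4027*, *Gm5662*, *Usp17lc*, a member of a deubiquitinase family, and *Tdpoz4*, with a TRAF and a POZ domain. *Gm2016* was 21.5 and 30.8 FPKM in Con-1 and OE-1, 24.0 and 42.5 in pair 2, and 82.6 and 131 in pair D7. *Rpl10l*, a ribosomal protein gene listed here, was 50.4 to 63.0 FPKM in all 6 libraries. In the D7 pair against the others, 23 of 40 tested genes of the list were called higher and 0 lower, with a median of 1.53. Of all genes, 6.77% were called higher and 3.06% lower there. Windows shared between transcripts of this list were not counted, so the genes called need not be independent. *B020031M17Rik* and *Gm20767*, named above for the *Tcstv* region, also stand in this list. *Dux* itself had no row.

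Of the other *Tcstv* and neighbouring 2-cell genes, 10 of 23 listed had a row. Of 6 tested, 2 were called higher over pairs 1 and 2 with the block, where 0.763% of all genes were. *Gm21761* rose by 0.52 (SE 0.12, adjusted p = 0.0484, edgeR) and *Gm10324*, which lies elsewhere on chromosome 13, by 0.70 (SE 0.12, adjusted p = 0.00426). *Gm10324* ran against the pairs, at 26.5 and 37.8 FPKM in pair 1, 11.5 and 23.2 in pair 2 and 16.9 and 14.4 in pair D7. *BC147527* was at 1.38 (SE 0.33, adjusted p = 0.0605).

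The genes listed as activators of *Zscan4* or the 2-cell-like state, whose role was not tested here, gave no call for the OE effect. Of 12 tested over pairs 1 and 2 with the block (edgeR), 0 were called, the median was -0.05, and 1 was lower and 0 higher before adjustment at p under 0.05. *Smarca5*, a chromatin remodeler, was 107 to 160 FPKM, *Trp53*, the p53 gene, 57.0 to 146, and *Rarg*, a retinoic acid receptor, 51.1 to 134. *Dppa2* was 85.5 and 83.8 FPKM in pair 1, 55.9 and 77.0 in pair 2 and 70.2 and 65.1 in pair D7. Against pair 1, pair 2 was called lower in 9 of 12, *Dppa2* (-0.46), *Prdm14* (-1.27) and *Trp53* (-1.08) among them, where 25.4% of all genes were called lower. In the D7 pair, *Tet1* (-1.40, adjusted p = 0.00819, edgeR) and *Tet2* (-1.30, adjusted p = 0.0205), which oxidize methylated cytosine, were called lower, with 0 of 14 called higher, where 3.06% of all genes were called lower. Among the partners and effectors of Zscan4, 1 of 17 was called over pairs 1 and 2 with the block, where 0.763% of all genes were called higher. It was the meiotic cohesin gene *Smc1b* (0.62, SE 0.12, adjusted p = 0.0122, edgeR). *Hdac1* (157 to 206 FPKM), *Uhrf1* (70.8 to 137) and *Hdac2* (96.4 to 113) were not called. Of 31 other SCAN zinc finger genes, 0 were called there, with a median of 0.01 and 2 lower at an unadjusted p under 0.05.

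**Figure D5:**
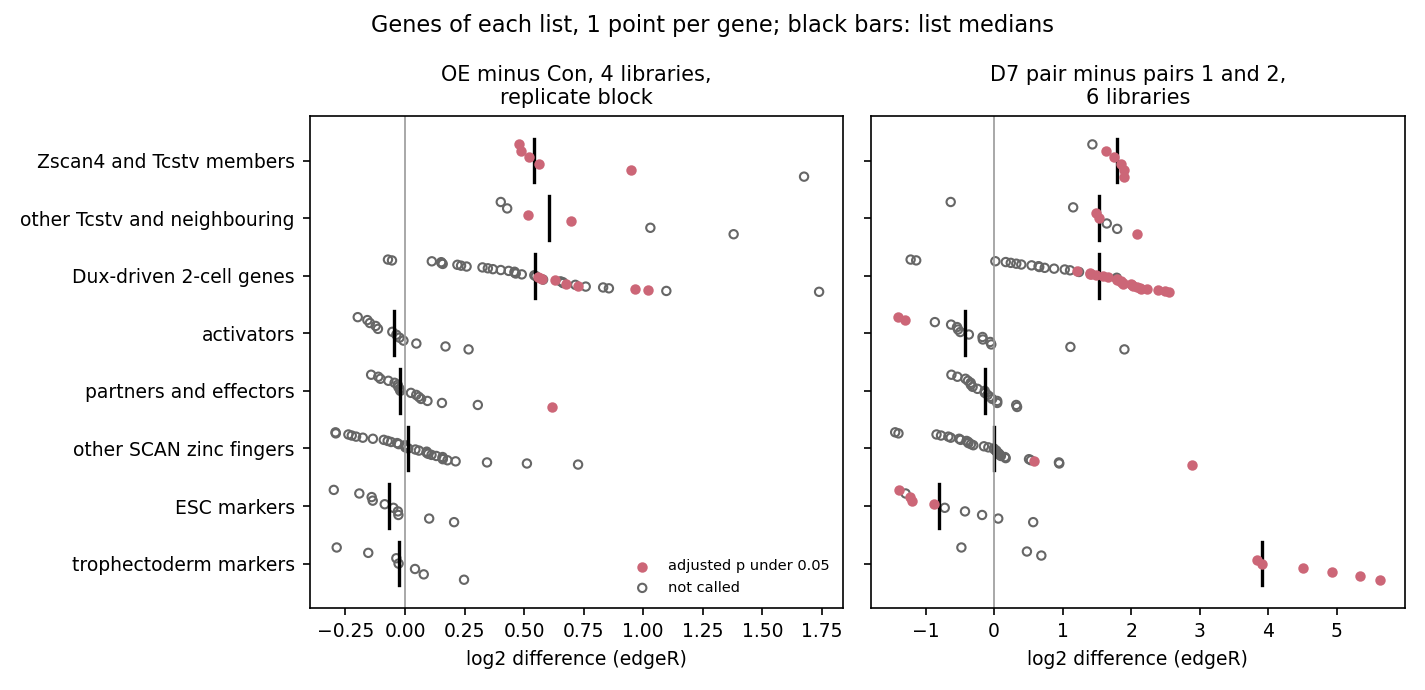
Log2 differences of the genes of each list, 1 point per gene, filled where the adjusted p was under 0.05, with a bar at the median, for OE over Con in pairs 1 and 2 (left) and for the D7 pair over the others (right). All members lie to the right of 0 in both panels (medians 0.54 and 1.80), as do most Dux-driven genes, and trophectoderm markers lie far to the right in the D7 panel (median 3.91).

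The libraries were checked for the labelled cell type and for other cells. All 10 ESC markers were present, and their summed FPKM was 3825 to 4889, *Pou5f1* being 312 to 683 FPKM. The trophectoderm list summed to 41.8 to 74.3 FPKM in the 4 libraries of pairs 1 and 2 and to 715 and 1268 in Con-D7 and OE-D7. In the D7 pair 6 of 9 tested genes of this list were called higher, where 6.77% of all genes were. They were *Cdx2*, *Gata3*, *Hand1*, *Krt7*, *Krt8* and *Krt18*, and *Krt18* was 318 and 580 FPKM there against 9.63 to 20.6 elsewhere. Fibroblast genes moved with it in part, 4 of 8 tested being called higher, and *Col1a1* was 37.98 and 129 FPKM in the D7 pair against 0.80 to 1.81. Of the ESC markers, *Esrrb*, *Klf4*, *Pou5f1* and *Utf1* were called lower there, as 3.06% of all genes were. The part of these markers in the members' gap of the D7 pair was not tested. Over pairs 1 and 2 with the block, 0 of 7 trophectoderm and 0 of 5 fibroblast genes were called. The same markers also differed with OE inside the D7 pair. By the difference in OE effect with the block (edgeR), 4 of 9 trophectoderm genes and 3 of 8 fibroblast genes had a higher OE effect in the D7 pair than in pairs 1 and 2, where 0.934% of all genes did, *Krt18* by 1.00 (SE 0.15, adjusted p = 0.000359) and *Col1a1* by 2.10 (SE 0.17, adjusted p = 5.31e-08). The ESC marker *Tdgf1* and the lineage genes *Otx2* and *Zic2* had a lower one, as 0.507% of all genes did. The part of these markers in the members' OE to Con ratio of the D7 pair was not tested. The D7 side of that difference in OE effect is 1 Con and 1 OE library, so its p-values cover no spread among D7 pairs. Between pairs 2 and 1, where 26% of all genes were called higher and 25.4% lower, 4 of 7 trophectoderm genes were called higher. Of 5 fibroblast genes, 3 were called higher (*Pdgfrb* by 1.87) and 1 lower (*Vim*, -0.46). Of 10 ESC markers, 2 were called higher and 4 lower (*Nanog* by -0.69). The part of these markers in that gap was not tested either. The primitive endoderm list summed to 12.3 to 21.7 FPKM, and in the D7 pair *Dab2* (2.15) and *Gata4* (1.68) were called higher and *Lama1* (-1.50) lower, of 5 tested. Of the primed and early lineage list, *Fgf5* (5.34) and *Nes* (0.86) were called higher there, of 9 tested. It summed to 87.8 to 148 FPKM. Of its 6 tested genes 1, *Zic2* (0.58), was called higher over pairs 1 and 2 with the block, where 0.763% of all genes were.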

How the data were processed

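The 6 genes and the gene lists were chosen with earlier results of these data known. For each gene the authors deposited estimated counts from RSEM, not normalized, and FPKM values scaled for transcript length and depth. The methods name Bowtie2 and mm10, the submitters' processing notes HISAT and GRCm38.p6, and no versions are given. Counts were rounded and tested with edgeR 4.0.16 (R 4.3.3), using TMM factors (0.920 to 1.05), a filter that kept genes averaging 0.5 FPKM or more, and Benjamini-Hochberg adjustment at 0.05. For the D7 libraries the deposited counts carry the heading average, and no source says of what. DESeq2 1.42.0 and limma 3.58.1 (voom) were alternatives. An SE is the log2 fold change over the root of the F statistic, and intervals are approximate.

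The study's methods name no block, so the fit without it was primary. Same-numbered libraries were then found to deviate together (correlations of 0.881, 0.756 and 0.889 over 12565 genes, other combinations -0.034 to -0.78), although deviations from a mean of 3 are held to sum to 0, so the fit with the block is given beside it. No source says the numbers mark shared handling. The block leaves 1 residual degree of freedom over 4 libraries. The fits were also run on simulated counts of 4 libraries. With a pair effect, whose size was set and not taken from the libraries, the fit without the block recovered 0 of 200 genes changed 1.5-fold. It also recovered 0 of 200 changed 2-fold, and the fit with the block recovered 131 and 198. At 4-fold, 178 of 200 were recovered without the block and 200 with it. The remaining spread was also set, close to that of the real fit with the block, so these runs cannot show which fit suits the libraries. Without a pair effect, 149 and 156 of 200 were recovered at 1.5-fold without and with the block.

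Named genes were the 6 members, *Dppa3*, the listed genes that passed in the fit concerned, up to 3 of highest level per list, and the 10 most alike in pattern. *Gm21188*, *Gm41080*, *Gm7207* and the other neighbours were named from their position. Activators and SCAN genes named for pairs are those that passed. Sequences came from RefSeq (promoters) and GENCODE M21 (transcripts).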

Additional observations from a re-analysis of the deposited data

Results flagged for a closer look

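These genes had an OE effect in the D7 pair that differed from that in pairs 1 and 2 by the edgeR interaction term with the replicate block. None of the 6 members was among them, and without the block 0 of all 13809 genes was called (before adjustment, 47 were higher and 22 lower at p under 0.05). The D7 side of each difference is 1 Con and 1 OE library, so these calls cover no spread among D7 pairs. *Dppa3* had a difference of -3.46 on the log2 scale. *Gm10324* had a difference of -0.96 and the meiotic cohesin gene *Smc1b* of -1.03, both with a higher OE to Con ratio in pairs 1 and 2. *Gm4340*, a Dux-driven gene, had a difference of 1.73, with 13.4 FPKM in Con-D7 and 43.6 in OE-D7. *Peg3*, an imprinted SCAN gene, had a difference of 0.85, with 62.2 and 97.9 FPKM in the D7 pair. Among markers of other cell types, the trophectoderm genes *Hand1* (1.12), *Krt18* (1.00), *Krt7* (1.21) and *Krt8* (0.77) and the fibroblast genes *Col1a1* (2.10), *Col1a2* (1.56) and *Vim* (0.60) had a higher OE effect in the D7 pair. The ESC marker *Tdgf1* (-0.75) and the lineage genes *Otx2* (-1.21) and *Zic2* (-1.41) had a lower one.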

How the results depend on the processing

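For OE against Con over pairs 1 and 2, where 0 members were called without the block, 5 were called with the replicate block in edgeR and 5 in limma-voom with it, and 3 with RLE size factors and the block, an alternative chosen after seeing the data. DESeq2 with the block, and edgeR with the block and no FPKM filter (30 genes called higher), called 0. The count of all genes called higher thus ran from 0 to 104. Leaving out each of the 4 libraries gave 0 to 0 members, and member estimates of 0.04 to 2.16, lowest without OE-2. The alternatives without the block (DESeq2, limma-voom, RLE, no filter) gave 0. Over 6 libraries, DESeq2 with the block called 5 members (60 of 13809 genes called higher). With the block and no filter, added after seeing the data, edgeR called 1 (18 of 19423 genes called higher). Limma-voom with the block, pairs 1 or 2 left out, and each library left out gave 0. For pair 2 over 1, DESeq2 called 3 members in place of 5, where it called 1576 of 13494 genes higher in place of 3511. For D7 over the others, 5 members were called without Con-1, Con-2 or OE-2, where 899, 1615 and 307 of all genes were called higher. Without OE-1, 4 members were called, where 361 of all genes were, in place of 935 with all libraries. Leaving out Con-D7 or OE-D7 leaves 1 library on the D7 side, so no count is given for it. The direction of each member's estimate in these 4 comparisons was the same under all alternatives run. The calls for the OE effect against the gaps, and for its difference in the D7 pair, were the same with RLE and without the filter, both added after seeing the data. Within pairs, ratios of TMM-scaled counts kept every direction. In estimated counts *Zscan4f* held 42.9% of the *Zscan4* signal and *Zscan4d* 17.8%. Depth limits *Tcstv1* most, at 6.10 estimated counts in Con-1.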
